A study of Mus musculus with 17 samples.

Results

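The C-terminal fragment of p65/RelA, named 362-549, was compared with the non-cleavable point mutant D361E in DA1-3b cells, a mouse leukaemia line that carries Bcr-Abl. The 3 arrays whose source name is exactly 362-549 and the 4 arrays whose source name is D361E were taken, which makes 7 of the 17 arrays of the series. All cells came from mouse strain C3H eOuJ by their label, grew in serum-containing DMEM and received plasmids. The plasmid coded for residues 362-549 of p65 in the first group and for p65 D361E in the second, and 4 arrays of cells with wild-type p65 (WT) are given beside them. The other arrays, 3 of 1-361 and 3 of 1-361 with 362-549, entered the fit to estimate the spread between arrays. They also counted, with the rest of the 17, in choosing which probes and genes were tested. Cells with the empty plasmid were not analysed here. Neither the promoter of the plasmids nor whether the cells were transient or stable transfectants is given in the sources used here, and the cells' own Rela gene was not described as removed. The labels do not say that the arrays came from separate cultures, so the p-values measure only how far these arrays spread, in part perhaps for technical reasons, and precision is limited by how few arrays there are.

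RelA is the subunit of NF-kB that carries a strong transactivation domain in its C-terminal part, while its N-terminal Rel homology domain binds DNA, dimerises and is held in the cytoplasm by IkB proteins. When IkB kinase marks the inhibitor for destruction, the dimer enters the nucleus and switches on cytokine, chemokine, adhesion and survival genes, as well as genes for its own inhibitors such as Nfkbia and Tnfaip3. In myeloid cells NF-kB is best known for its part in inflammatory gene expression, and the stated aim of the series was to compare genes under control of wild-type p65, of the form that cannot be cleaved and of the cleavage fragments.

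Levels are the log2 of the processed Cy3 signal of an array minus the log2 of that array's 75th percentile, so a level of 0 is a signal equal to that percentile and each step of 1 is a doubling. Differences are 362-549 minus D361E from limma, given with their standard error, and a gene was called at a Benjamini-Hochberg adjusted p under 0.05 over the 15259 genes tested. The 75th percentile lay between 635.8 and 700.1 units in the 362-549 arrays, against 668.4 to 898.7 units in the D361E arrays. The share of probes well above background ran from 49.8% to 51.3% in 362-549 arrays and from 51.6% to 53.6% in D361E arrays. The 7 arrays lay on 6 slides, of which 1 held both groups with 1 array each. Of the 9 markers of a leukaemic haematopoietic cell, 8 were above background on at least 1 of the 7 arrays, and Kit, the stem cell factor receptor, was dim on all 7. Rela itself, read by 1 probe at chr19:5648070-5648129 of mm9, had levels of 4.80, 4.86 and 4.82 in 362-549 arrays, against 4.62, 4.79, 4.66 and 4.88 in D361E arrays. The groups overlapped (difference 0.09 ± 0.10, adjusted p = 0.878), and since whether that probe matches the plasmids was not looked up, it does not check which construct the cells carried.

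Of the genes tested, 196 differed between 362-549 and D361E, which is 1.28%. Of these, 63 (0.413% of all genes) were higher in 362-549 arrays and 133 (0.872%) were lower. The lower share of the calls was 67.9%. It was 80.7% with no scaling between arrays and 85% with normexp background correction, settings that called 145 and 40 genes. With no filter on dim probes it was 63.3%, with 139 calls. With the rounds formed by the title numbers as a block it was 49.9%, with 543 calls. The 2 groups did not overlap on any array for 854 genes that were higher in 362-549 (5.6%) and 608 that were lower (3.98%), and all 196 called genes were among them. The median of the called falls was -1.59 and that of the called rises 1.43, and 66 called genes differed by more than 2 on the log2 scale. Of the lower genes, 26 were not well above background on any 362-549 array, and of the higher genes, 13 were not well above background on any D361E array. Such genes get only a bound, written "at least N-fold". It sets the brighter group's mean against the higher of the probe's own signal and the lowest signal well above background on each dim array. On the 1 slide with both groups, the differences of the called genes had a median size of 1.52, against 1.5 over the 7 arrays. Their direction there was fixed by the lack of overlap, so it is no check on the slides. Fitting slide as a fixed block left 54 of the 196 calls, and normexp left 39. Below, a lost call with slide as a block or without 1 array is given beside the gene. Under normexp, the named genes still called were Nfkbia, Ltb, Clec4e, Pilra, Fcgr2b, Tyrobp, Acod1, Hif1a, Slpi, Ms4a3, Pkd2l1, Epb41l3, Hbb-bt, Hbb-b2, Trpc6 and Socs3. All other named called genes lost their calls, among them Tnfaip3, Ccl3, Clec7a, Itgax, Gpr132, Olr1, Pilrb1, Gbp2, Itih3, Olfr165, Fndc4, Ryk and F13a1.

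**Figure D1:**
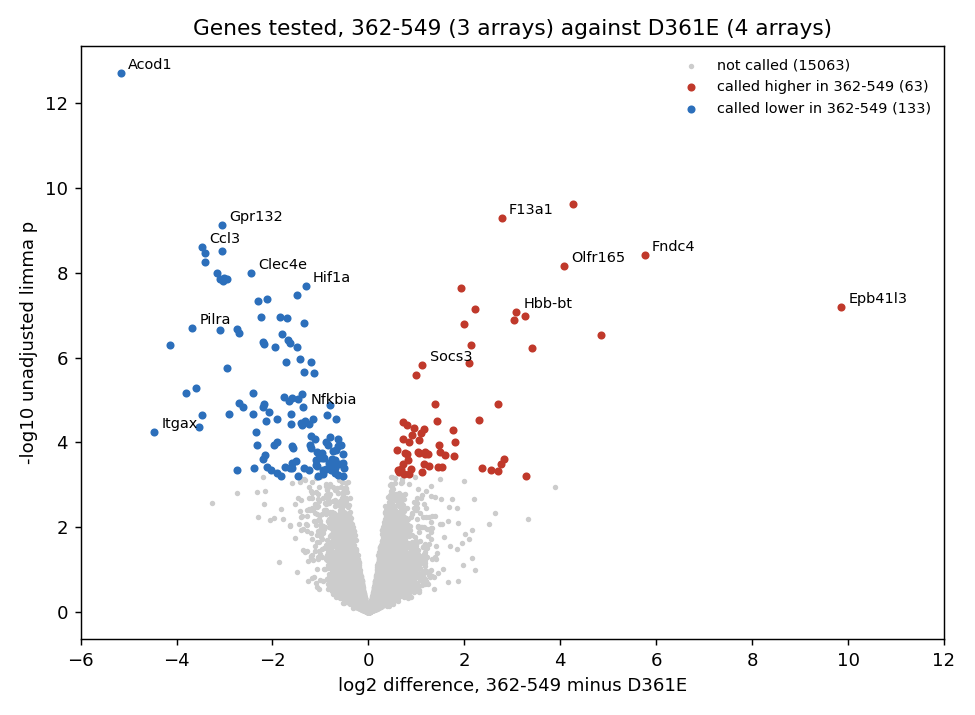
Each point is 1 of 15259 genes tested; the x axis is the log2 difference, 362-549 (3 arrays) minus D361E (4 arrays), and the y axis the -log10 of limma's unadjusted p. The 63 genes called higher are red and the 133 called lower blue; Acod1 lies at the far left of the falls and Epb41l3 at the far right of the rises.

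Among NF-kB genes, none of the 4 subunits tested was called, while 2 of 14 inhibitor and feedback genes, 1 of 20 kinases and adaptors and 3 of 11 cytokine and chemokine targets were called lower in 362-549 cells. Over all genes tested 1.28% were called, 0.872% lower, and counts of list members here and below stand against these shares. A gene could pass the filter on dim probes through only the group where it was bright, so such counts describe the lists and test nothing. Nfkb1, which codes for p105 and p50, differed by 0.71 ± 0.20 (adjusted p = 0.133), Nfkb2 by 0.11 ± 0.19 (adjusted p = 0.929) and Relb by -0.36 ± 0.21 (adjusted p = 0.649). Rel, the c-Rel gene, was on the array and did not pass the filter on dim probes.

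Of 14 tested inhibitor and feedback genes, 2 fell and none rose, with a median difference of -0.22 against 0.04 over all genes tested. Nfkbia, the gene of IkB alpha (probe at chr12:56590945-56591440, mm9), had levels of 3.45, 3.13 and 4.07 in 362-549 arrays, against 5.09, 5.11, 4.67 and 4.79 in D361E arrays. Every 362-549 array was below every D361E array, and replicate 3 lay nearest to them. The difference was -1.36 ± 0.22 (adjusted p = 0.00322). Tnfaip3, the gene of the ubiquitin-editing enzyme A20, had levels of -2.39, -2.48 and -1.74 in 362-549 arrays, against -1.13, -0.82, -1.0 and -0.36 in D361E arrays. Its groups did not overlap either, and again replicate 3 was the highest of the 362-549 arrays (difference -1.38 ± 0.24, adjusted p = 0.00656). The other inhibitors were not called. Nfkbib, Nfkbie and Nfkbid, which code for further IkB family members, differed by -0.17, -0.26 and -0.48, and Nfkbiz by -0.01. The remaining 8 members, among them the deubiquitinase gene Cyld and the A20-binding Tnip1, lay between -0.68 (Zc3h12a) and 0.21 (Commd1). With slide as a block, Nfkbia and Tnfaip3 were no longer called (adjusted p = 0.113 and 0.164), nor was Tnfaip3 without 362-549 replicate 2 (adjusted p = 0.0529). With only the 7 arrays in the fit, both also missed the threshold.

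Promoter windows of Nfkbia, Tnfaip3, Ltb and Tlr2 are shown because each holds a match to the kB consensus, while those of the other called NF-kB genes, Ccl3, Lta, Traf1 and Olr1, held none in the bases searched. The motif searched was the 10-letter kB consensus on both strands of the 250 bases before each RefSeq start (GRCm38.p6), and capitals mark the match within a 30-base window written along the gene's strand.
Nfkbia, chr12:55492657-55492686, minus strand: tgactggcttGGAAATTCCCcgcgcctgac
Tnfaip3, chr10:19015516-19015545, minus strand: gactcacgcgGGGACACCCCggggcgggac
Tnfaip3, chr10:19015411-19015440, minus strand: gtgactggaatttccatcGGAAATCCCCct
Ltb, chr17:35194410-35194439, plus strand: aagggtgttcGGAAAGTCCCcgggcagggg
Tlr2, chr3:83841762-83841791, minus strand: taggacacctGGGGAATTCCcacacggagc
A match is a description of letters and not a bound site. Of the genes with a promoter in the table, 12 of 94 called lower (12.8%) and 3 of 35 called higher (8.57%) held a match, against 1006 of 9710 genes tested (10.4%), so the share among called genes was close to that of all promoters.

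Of the 24 cytokine and chemokine targets listed, 11 passed the filter. Among them 3 fell and none rose, and their median difference was -0.82, against 0.04 over all genes tested. Ccl3, a chemokine that draws monocytes and other leukocytes (probe at chr11:83461358-83461417, mm9), had levels of -5.40, -5.22 and -5.03 in 362-549 arrays, against -1.81, -1.15, -1.58 and -2.48 in D361E arrays. It was well above background on none of the 362-549 arrays and on all 4 D361E arrays. Ccl3 was thus at least 7.44-fold lower in 362-549 cells (adjusted p = 7.21e-06). Ltb, which codes for lymphotoxin beta, had levels of 3.31, 3.45 and 3.83 in 362-549 arrays, against 4.73, 4.90, 4.80 and 5.02 in D361E arrays. These groups were well apart, with a difference of -1.33 ± 0.23 (adjusted p = 0.00574). Lta, the gene of lymphotoxin alpha, had levels of -4.42, -5.24 and -4.53 in 362-549 arrays, against -3.04, -2.28, -2.58 and -3.39 in D361E arrays. It was above background on 1 of the 362-549 arrays, and the groups did not overlap (difference -1.91 ± 0.36, adjusted p = 0.0137). The inflammatory cytokine genes Tnf and Il6 differed by -0.82 (adjusted p = 0.215) and -1.05 (adjusted p = 0.139) and were not called. With slide as a block Ltb and Lta were not called (adjusted p = 0.102 and 0.213), while Ccl3 was (adjusted p = 0.000988). Lta also missed the threshold without 362-549 replicate 2 (adjusted p = 0.0909) or D361E replicate 2 (adjusted p = 0.0526). Without the filter on dim probes the median of the cytokine list was -0.11, since genes near background then count in it.

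Single members of 3 further NF-kB lists fell. Traf1, an adaptor of TNF receptors, had levels of -0.70, -0.65 and -0.07 in 362-549 arrays, against 0.35, 0.81, 0.95 and 0.37 in D361E arrays. It was the 1 call among 20 kinases and adaptors (difference -1.09 ± 0.23, adjusted p = 0.0271), and the other 19 did not pass the test. Tlr2, a receptor for bacterial lipopeptides, had levels of -2.22, -2.23 and -1.69 in 362-549 arrays, against -1.39, -1.08, -0.96 and -0.62 in D361E arrays. The gap between the groups was small beside their spread, and Tlr2 was the 1 call among 13 TNF, Toll-like and interleukin-1 receptor genes (difference -1.03 ± 0.21, adjusted p = 0.0261). Olr1, the gene of a scavenger receptor for oxidised LDL, had levels of -4.78, -4.41 and -4.39 in 362-549 arrays, against -2.79, -2.19, -2.10 and -2.21 in D361E arrays. It was above background on 1 of the 362-549 arrays and the 1 call among 20 survival and adhesion targets (difference -2.21 ± 0.26, adjusted p = 0.000167). Icam1, an adhesion molecule of the same list, differed by -1.10 (adjusted p = 0.052) and was not called. Traf1 and Tlr2 lost their calls with slide as a block (adjusted p = 0.315 and 0.476) and Olr1 kept its call (adjusted p = 0.017). Traf1 was not called without replicate 1 or 2 of 362-549 or replicate 2 or 3 of D361E (adjusted p up to 0.132), nor Tlr2 without replicate 1 or 2 of 362-549 or replicate 2, 3 or 4 of D361E (adjusted p up to 0.131).

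**Figure D2:**
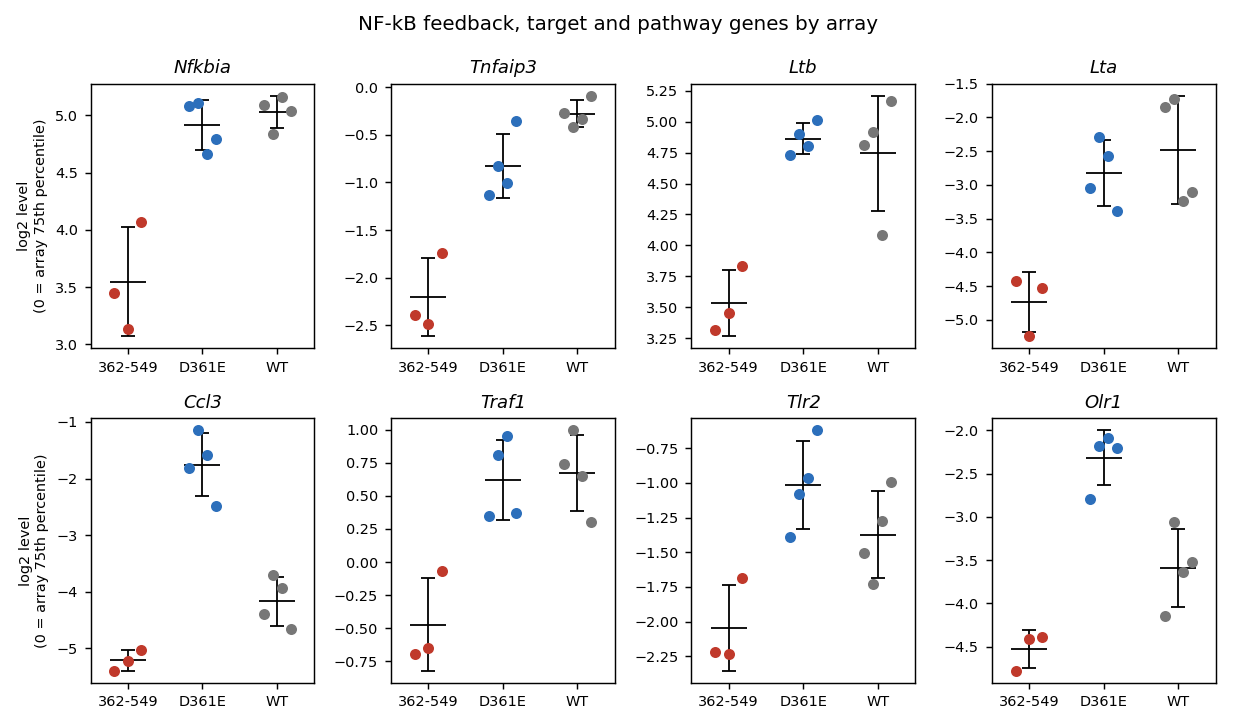
Levels by array (log2, 0 at the array's 75th percentile) of 8 called NF-kB pathway genes in 362-549 (3 arrays, left), D361E (4 arrays) and WT (4 arrays, right); the long bar is the mean and the whiskers the SD. In all 8 panels the 362-549 points lie below the D361E points, most narrowly for Tlr2 and Traf1.

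Receptors and effector genes of myeloid cells were among the falls. Of 26 paired and Fc receptor genes listed, 19 were tested, 7 fell and none rose, with a median difference of -0.48 against 0.04 over all genes. The called share was 36.8%, against 1.28% over all genes tested. The 7 were Pilra, Pilrb1, Pilrb2, Clec4e, Clec7a, Fcgr2b and Tyrobp. The share only describes the list, since a gene could pass the filter through the group where it was bright. The Pilrb2 probe was well above background on 4 D361E, 2 WT and 0 362-549 arrays. Pilra, Pilrb1 and Pilrb2 may also share signal and so may not be separate calls.

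Pilra and Pilrb1 are an inhibitory and an activating member of the paired immunoglobulin-like type 2 receptors, and their probes lie close together on chromosome 5 with that of Pilrb2. Pilra (probe at chr5:138264617-138264676, mm9) had levels of -4.38, -4.57 and -2.73 in 362-549 arrays, against -0.42, 0.03, -0.29 and -0.22 in D361E arrays. The D361E arrays agreed closely, and 1 of the 362-549 arrays was above background (difference -3.67 ± 0.40, adjusted p = 9.41e-05). Other probes named Pilra gave -4.17, -5.21 and -0.29, so 1 of its 4 probes did not show the fall. Pilrb1 had levels of -6.90, -6.61 and -6.66 in 362-549 arrays, against -3.27, -2.46, -3.02 and -1.57 in D361E arrays. It was dim on every 362-549 array and at least 4.2-fold lower there (adjusted p = 0.000179). Pilrb2 was at least 3.08-fold lower (adjusted p = 0.0072), and since the Pilr genes resemble each other their probes may share signal.

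Clec4e, also called Mincle, and Clec7a, also called dectin-1, are C-type lectin receptors for microbial glycolipids and beta-glucans. Clec4e had levels of -0.28, 0.02 and 0.05 in 362-549 arrays, against 1.97, 2.58, 2.46 and 2.47 in D361E arrays. All 7 arrays measured it well above background, and the groups were far apart (difference -2.44 ± 0.21, adjusted p = 1.33e-05). Clec7a had levels of -6.0, -6.48 and -6.48 in 362-549 arrays, against -2.79, -3.31, -3.61 and -3.46 in D361E arrays. It was dim on every 362-549 array and at least 2.56-fold lower (adjusted p = 1.51e-05). Fcgr2b, the inhibitory Fc receptor for IgG, had levels of -1.80, -1.36 and -1.17 in 362-549 arrays, against 0.35, 0.63, 0.60 and 0.46 in D361E arrays. No array of one group reached the other (difference -1.96 ± 0.23, adjusted p = 0.000192). Tyrobp, the adaptor DAP12 that several activating receptors signal through, had levels of 2.99, 3.52 and 3.75 in 362-549 arrays, against 4.93, 5.23, 5.15 and 5.02 in D361E arrays. It was well above background on all 7 arrays, with no overlap (difference -1.66 ± 0.26, adjusted p = 0.00258). The 12 uncalled members included the Fc receptor genes Fcgr1 (-0.24), Fcgr3 (-0.13) and Fcer1g (-0.48). With slide as a block, Tyrobp and Pilrb2 were not called (adjusted p = 0.097 and 0.333) and the other 5 were.

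Acod1, which makes itaconate in activated macrophages, had the smallest p of the comparison. Its levels were -6.20, -6.51 and -6.73 in 362-549 arrays, against -1.69, -1.13, -0.93 and -1.48 in D361E arrays (probe at chr14:103455171-103455231, mm9). It was dim on every 362-549 array and above background on every D361E array, at least 10.1-fold lower (adjusted p = 3.02e-09). Itgax, the CD11c integrin chain, had levels of -6.21, -5.32 and -5.94 in 362-549 arrays, against -2.56, -1.34, -1.38 and -0.12 in D361E arrays. The D361E arrays spread widely here, and Itgax was at least 9.84-fold lower in 362-549 (adjusted p = 0.00894). It was the 1 call among 26 tested integrin and adhesion genes and was not called with slide as a block (adjusted p = 0.258) or without 362-549 replicate 1 (adjusted p = 0.0519). Hp, the gene of haptoglobin, was at least 5.26-fold lower (adjusted p = 0.00177), and Vsir, the checkpoint receptor VISTA, at least 2.98-fold lower (adjusted p = 0.00442). Both lost their calls with slide as a block (adjusted p = 0.0674 and 0.277).

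A further 9 called genes were named after their values were seen and from no list, so they show no theme. Slpi, a secreted protease inhibitor, had levels of -1.40, -0.93 and -0.46 in 362-549 arrays, against 1.27, 1.61, 1.40 and 1.65 in D361E arrays, with a difference of -2.41 ± 0.36 (adjusted p = 0.00177). Pglyrp1, a peptidoglycan recognition protein of granules, differed by -2.75 (adjusted p = 0.0374, above background on 1 of 3 362-549 arrays), and P2rx7, an ATP-gated channel, by -2.33 (adjusted p = 0.0156). Mpeg1, which codes for the pore-forming perforin-2, was dim on all 362-549 arrays and at least 2.29-fold lower (adjusted p = 0.0374). Padi4, an enzyme that citrullinates histones in neutrophils, differed by -1.41 (adjusted p = 0.00617), Ms4a3 of granulocyte progenitors by -2.38 (adjusted p = 0.0364) and the inflammasome sensor gene Nlrc4 by -1.07 (adjusted p = 0.0346, above background on 2 of 3 362-549 arrays). The chemokine gene Ccl6 differed by -1.75 (adjusted p = 0.00215), and Il13, a type 2 cytokine, was dim in 362-549 and at least 2.67-fold lower (adjusted p = 0.0044). None of these 9 genes kept its call with slide as a block. With 1 array left out, Slpi, Padi4, Ccl6 and Il13 kept their calls in all 7 cases. Ms4a3 and Nlrc4 kept theirs only without D361E replicate 1 (otherwise adjusted p up to 0.18 and 0.186), Mpeg1 only without 362-549 replicate 2 or D361E replicate 1 (otherwise up to 0.209) and Pglyrp1 only without 362-549 replicate 3 or D361E replicate 1 (otherwise up to 0.171). P2rx7 lost its call without replicate 1 or 3 of 362-549 or replicate 2 of D361E (up to 0.0878).

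Cell type markers were read beside these falls. The summed linear level of 9 macrophage or monocyte markers on the array ran from 13.7 to 17.6 in 362-549 arrays and from 7.42 to 26.3 in D361E arrays, and Cd14 and Mrc1 were among the markers dim on all 7. Of the 6 macrophage markers tested only Acod1 was called. The neutrophil sum ran from 72.6 to 92.3 in 362-549 and from 48.1 to 96.2 in D361E, with 0 of 3 tested markers called (Csf3r 0.20, Elane 0.03 and Prtn3 0.55), and the dendritic cell sum from 44.3 to 62.0 in 362-549 and from 30.1 to 61.3 in D361E, with Itgax the 1 call of 3. The eosinophil sum was lower without overlap, 0.83 to 1.47 in 362-549 against 2.32 to 16.6 in D361E, although 0 of 3 tested markers were called and Ear1 was dim on all 7 arrays. The megakaryocyte or platelet sum, at 33.7 to 40.3 in 362-549 against 42.4 to 71.1 in D361E, and the B cell sum, at 1.35 to 1.78 in 362-549 against 2.1 to 2.52 in D361E, were also lower without overlap, and Cd79a and Pax5 were among the B cell markers dim on all 7. The part of other cells in the falls was not tested. In bulk RNA of this kind, fewer cells of a type and less RNA per cell cannot be told apart.

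**Figure D3:**
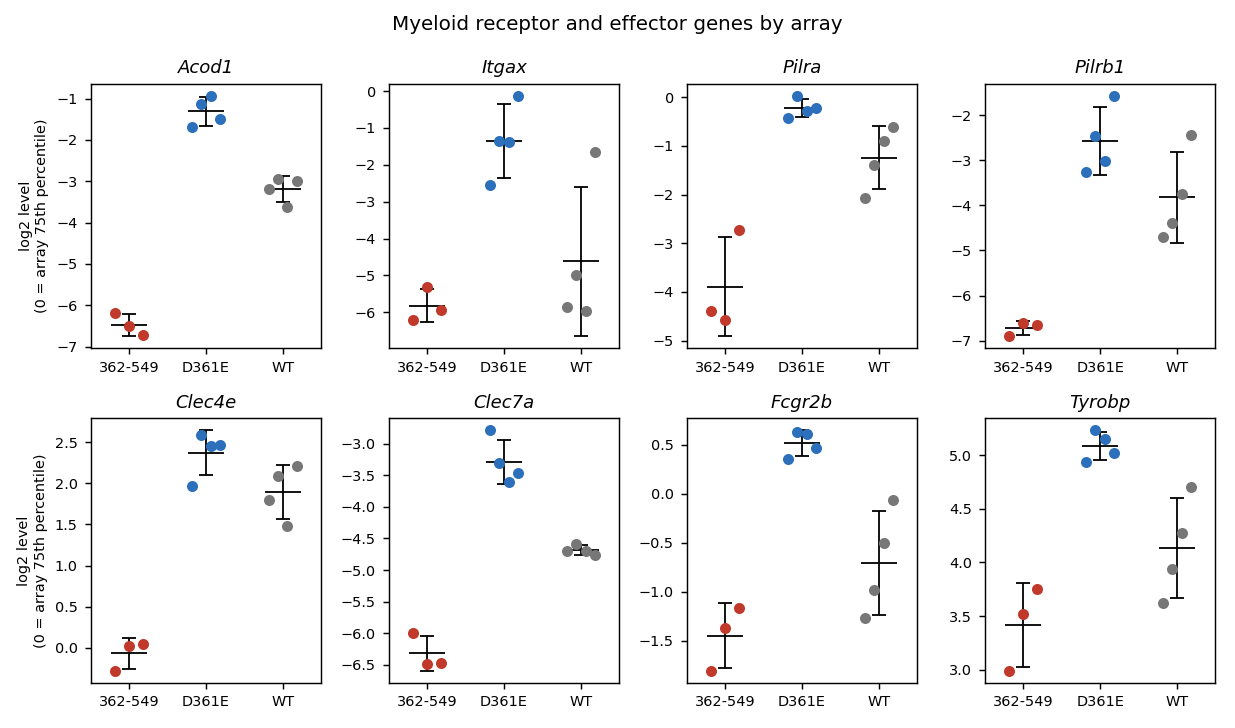
Levels by array (log2, 0 at the array's 75th percentile) of 8 myeloid receptor and effector genes in 362-549 (3 arrays, left), D361E (4 arrays) and WT (4 arrays, right); the long bar is the mean and the whiskers the SD. In all 8 panels the 362-549 points lie below the D361E points, and for Acod1, Pilrb1, Itgax and Clec7a no 362-549 point is well above background.

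Other large falls had no list in common. Gpr132, a G protein-coupled receptor of lymphoid and myeloid cells, had levels of -4.65, -5.18 and -5.17 in 362-549 arrays, against -2.04, -1.88, -1.90 and -1.96 in D361E arrays. It was above background on 1 of the 3 362-549 arrays, and the D361E arrays lay within a narrow band above them all (difference -3.06 ± 0.22, adjusted p = 2.85e-06). Pkd2l1, which codes for a polycystin channel, was measured on all 7 arrays, with -0.73, -0.49 and -0.54 in 362-549 arrays, against 2.09, 2.56, 2.82 and 2.59 in D361E arrays (difference -3.10 ± 0.34, adjusted p = 9.84e-05). Slc4a5, a sodium bicarbonate cotransporter gene, was at least 8.27-fold lower (adjusted p = 9.42e-06). Itih3, a heavy chain of the inter-alpha-trypsin inhibitors of plasma, was at least 3.31-fold lower (adjusted p = 7.21e-06). The complement protease gene C1s2 and the long noncoding RNA Mirt2 were at least 2.92-fold (adjusted p = 1.44e-05) and at least 4.89-fold lower (adjusted p = 0.00141). Prkd3, a protein kinase D gene, was at least 2.0-fold lower (adjusted p = 1.33e-05), although 2 other probes for it and 1 other for C1s2 were at background on all 7 arrays. Mirt2 alone of these lost its call with slide as a block (adjusted p = 0.11).

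Among interferon-stimulated genes 3 of 37 tested fell (8.11%, against 1.28% called over all genes) and none rose, with a median of 0.03 against 0.04 over all genes. Gbp2, a guanylate-binding protein gene, was dim in 362-549, with -6.14, -5.80 and -6.78 there, against -3.75, -3.27, -3.90 and -3.25 in D361E arrays, at least 2.15-fold lower (adjusted p = 0.000113). Its relative Gbp3, above background on 2 of 3 362-549 arrays, differed by -2.15 ± 0.44 (adjusted p = 0.0225), and Ifitm6 was at least 4.02-fold lower (adjusted p = 0.00894). The last 2 lost their calls with slide as a block (adjusted p = 0.299 and 0.166). Ifitm6 was not called without 362-549 replicate 3 (adjusted p = 0.0639), nor Gbp3 without any 1 of the 362-549 arrays or without replicate 2 or 4 of D361E (adjusted p up to 0.129).

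Hif1a, the oxygen-regulated subunit of the hypoxia-inducible factor, fell while most genes of glycolysis and hypoxia had positive differences that did not pass the test. Its levels were -0.62, -0.35 and -0.32 in 362-549 arrays, against 1.00, 0.79, 0.88 and 0.85 in D361E arrays. The arrays of each group agreed within a narrow range (difference -1.31 ± 0.12, adjusted p = 1.86e-05), and a second Hif1a probe gave -2.43. Of 29 glycolysis and hypoxia genes tested, 1 rose and 2 fell, and 27 of 29 differences were above 0, with a median of 0.65 against 0.04 over all genes. Slc16a3, the lactate exporter MCT4, was the other fall (difference -0.70 ± 0.15, adjusted p = 0.0308). Eno1, the glycolytic enzyme enolase, was the rise (difference 0.83 ± 0.17, adjusted p = 0.0272), but its probe is placed on chromosome 2 in the array file and near-identical enolase copies may share its signal. Slc2a1, the glucose transporter GLUT1, differed by 1.18 (adjusted p = 0.767) and Pfkl, a phosphofructokinase gene, by 0.95 (adjusted p = 0.121), both uncalled. Slc16a3 and Eno1 lost their calls with slide as a block (adjusted p = 0.942 and 0.364) and Hif1a kept its call (adjusted p = 0.0143). Slc16a3 kept its call when 362-549 replicate 2 was left out and lost it for each of the other 6 arrays (adjusted p up to 0.153), and Eno1 not without replicate 2 or 3 of 362-549 or 2 or 4 of D361E (adjusted p up to 0.122).

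Fewer genes were called higher in 362-549 than lower, except with title rounds as a block. The rises included genes with almost no signal in D361E cells. Epb41l3, a membrane skeleton protein of the band 4.1 family (probe at chr17:69639235-69639294, mm9), had levels of 4.95, 4.79 and 5.02 in 362-549 arrays, against -3.71, -3.33, -5.20 and -7.52 in D361E arrays. It was thus far over the 75th percentile in 362-549, and above background on 2 of 4 D361E arrays (difference 9.86 ± 1.00, adjusted p = 4.38e-05). Fndc4, which codes for a fibronectin type III domain protein, had levels of -1.40, -1.38 and -0.86 in 362-549 arrays, against -6.41, -7.24, -6.52 and -7.71 in D361E arrays. It was dim on every D361E array and at least 15.6-fold higher in 362-549 (adjusted p = 7.21e-06), while a second Fndc4 probe was dim on all 7 arrays. Olfr165, an olfactory receptor gene, was at least 4.8-fold higher (adjusted p = 1.05e-05).

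Ryk, a Wnt receptor related to tyrosine kinases, had levels of -1.50, -1.19 and -0.10 in 362-549 arrays, against -4.28, -4.17, -3.67 and -5.27 in D361E arrays (difference 3.42 ± 0.41, adjusted p = 0.000201). F13a1, the A subunit of coagulation factor XIII, had levels of -1.15, -0.70 and -0.97 in 362-549 arrays, against -3.69, -3.72, -3.77 and -3.69 in D361E arrays. The D361E arrays were almost identical for F13a1, far below all 362-549 arrays (difference 2.78 ± 0.20, adjusted p = 2.64e-06). Trpc6, a calcium-permeable channel gene, had levels of 0.22, 0.07 and -1.03 in 362-549 arrays, against -3.74, -3.60, -3.77 and -2.94 in D361E arrays. Its lowest 362-549 array was still well above every D361E array (difference 3.26 ± 0.34, adjusted p = 6.25e-05). Socs3, a feedback inhibitor of cytokine signalling, had levels of 1.17, 1.27 and 1.52 in 362-549 arrays, against 0.34, 0.28, 0.25 and -0.09 in D361E arrays. It was the 1 call among 19 STAT5 and Bcr-Abl output genes (difference 1.13 ± 0.15, adjusted p = 0.00045), whose median was 0.16 against 0.04 over all genes. Pik3cd, the leukocyte catalytic subunit of PI3-kinase, named after its values were seen, differed by 1.40 ± 0.22 (adjusted p = 0.00284). Neither Socs3 nor Pik3cd was called with slide as a block (adjusted p = 0.0791 and 0.193), while Epb41l3, Fndc4, Olfr165, Ryk, F13a1 and Trpc6 were.

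Beta globin genes rose together. Hbb-bt had levels of 4.47, 4.97 and 5.16 in 362-549 arrays, against 1.99, 2.10, 2.33 and 0.71 in D361E arrays (difference 3.09 ± 0.32, adjusted p = 5.37e-05). D361E replicate 4 was the lowest and all 362-549 arrays were well above the D361E arrays. Hbb-b2 differed by 3.04 ± 0.32 (adjusted p = 6.83e-05), Hbb-bs by 2.83 ± 0.59 (adjusted p = 0.0265) and the embryonic Hbb-bh1 by 1.79 ± 0.37 (adjusted p = 0.0231), and near-identical adult globin genes may share signal. Other erythroid genes did not go with them. The alpha globin gene Hba-a1 differed by 0.19 (adjusted p = 0.951) and the erythroid factor gene Klf1 by 0.21 (adjusted p = 0.803), while Ahsp and Alas2 were among the markers dim on all 7 arrays. The summed level of the 11 erythroid markers, globins included, ran from 54.5 to 101 in 362-549 arrays and from 21.6 to 53.1 in D361E arrays. Of these markers 4 of 7 tested were called, all beta globins (57.1%, against 1.28% over all genes). Hbb-bs and Hbb-bh1 were not called with slide as a block (adjusted p = 0.412 and 0.14). Leaving out 1 array also ended the call of Hbb-bs for each array but D361E replicate 3 (adjusted p up to 0.111), and that of Hbb-bh1 for replicates 2 and 3 of 362-549 and 2 and 4 of D361E (adjusted p up to 0.134).

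Smaller or dimmer rises completed the list. Cd3g, a chain of the T cell receptor complex, had levels of -2.96, -2.89 and -2.91 in 362-549 arrays, against -5.04, -5.27, -4.62 and -5.94 in D361E arrays (difference 2.30 ± 0.39, adjusted p = 0.00571). It was above background on 1 of the 4 D361E arrays. The T cell genes Cd2, Cd247, Cd8a and Thy1 were dim on all 7 arrays, and the summed T cell marker level overlapped, at 5.49 to 6.75 in 362-549 and 5.70 to 7.48 in D361E. Ttc25 was at least 7.35-fold higher (adjusted p = 0.0482), Sez6 at least 2.31-fold (adjusted p = 0.00284) and the lipoxygenase gene Alox12 at least 2.85-fold (adjusted p = 0.0364). The PDZ and LIM domain gene Pdlim4 and the synaptic scaffold gene Grid2ip differed by 2.76 and 2.55 with wide spread among the 362-549 arrays, whose Pdlim4 levels were -4.39, -1.33 and -2.24. Pdlim4 was above background on 1 and Grid2ip on 2 of the 4 D361E arrays. Ttc25 lost its call when any 1 of the 7 arrays was left out (adjusted p up to 0.196). Alox12 was called only without D361E replicate 1 (otherwise up to 0.193), and Pdlim4 and Grid2ip only without replicate 1 of either group (otherwise up to 0.174 and 0.204). With normexp none of the 6 was called, and of these 6 genes only Sez6 kept its call with slide as a block.

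**Figure D4:**
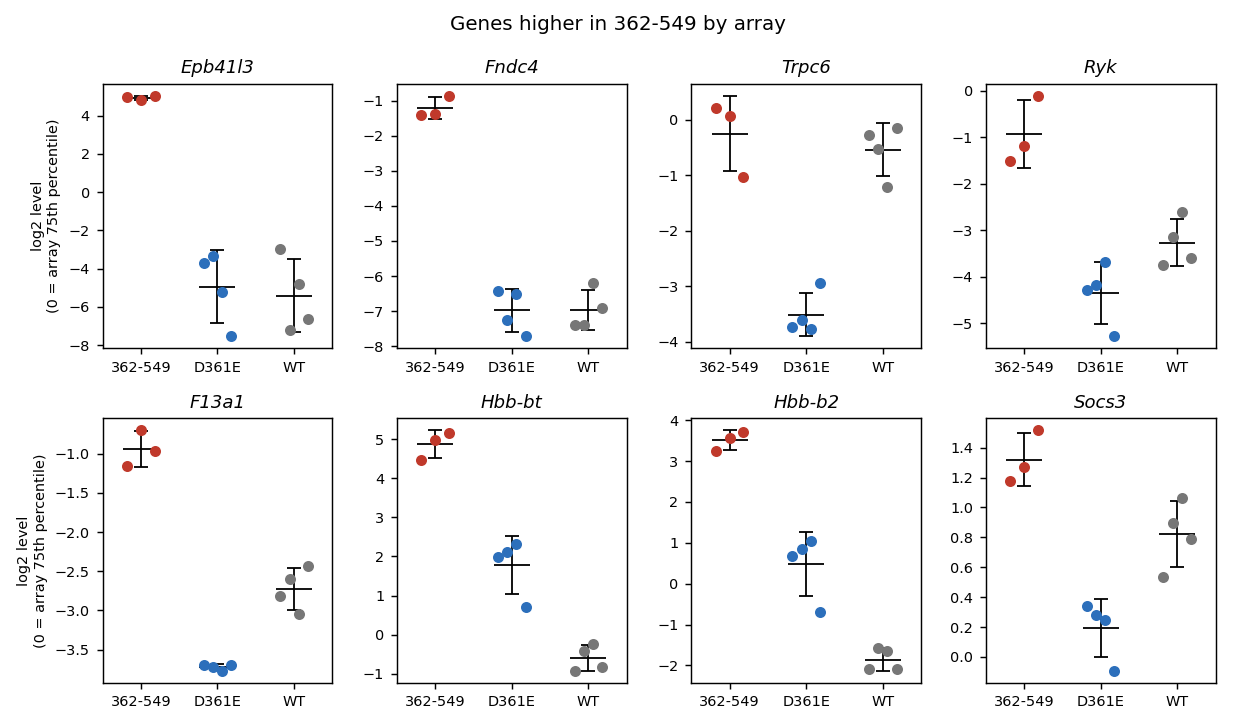
Levels by array (log2, 0 at the array's 75th percentile) of 8 genes called higher in 362-549 (3 arrays, left) than in D361E (4 arrays), with WT (4 arrays, right); the long bar is the mean and the whiskers the SD. The 362-549 points lie above all D361E points in every panel, and for Trpc6 the WT points lie with those of 362-549.

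Receptor and lineage genes gave few calls. Cxcr4, the receptor of the chemokine CXCL12, differed by -0.79 ± 0.18 (adjusted p = 0.0376). Pf4, a platelet chemokine, differed by -0.97 ± 0.20 (adjusted p = 0.0258). Cebpe, a granulocyte transcription factor gene, was the 1 call among 18 lineage factors (difference -0.97 ± 0.20, adjusted p = 0.0212), and the costimulatory gene Cd80 the 1 call among 17 antigen presentation genes (difference -0.74 ± 0.16, adjusted p = 0.0364). None of these 4 was called with slide as a block. Cxcr4 and Cd80 lost their calls without any 1 of the 7 arrays (adjusted p up to 0.195 and 0.19). Pf4 lost its call without any array but D361E replicates 1 and 4 (adjusted p up to 0.11) and Cebpe without replicate 1 or 3 of 362-549 or 2 or 4 of D361E (up to 0.113).

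No gene was called by limma among 29 cell cycle, 28 integrated stress response, 25 apoptosis, 22 cholesterol synthesis, 20 unfolded protein response, 14 p53 target and 9 stefin or cystatin-like genes. Their medians ran from -0.22 for the stefin and cystatin-like genes to 0.22 for cholesterol synthesis, against 0.04 over all genes tested, of which 1516 had an unadjusted p under 0.05. The spread by list is drawn in the plot of list members.

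**Figure D5:**
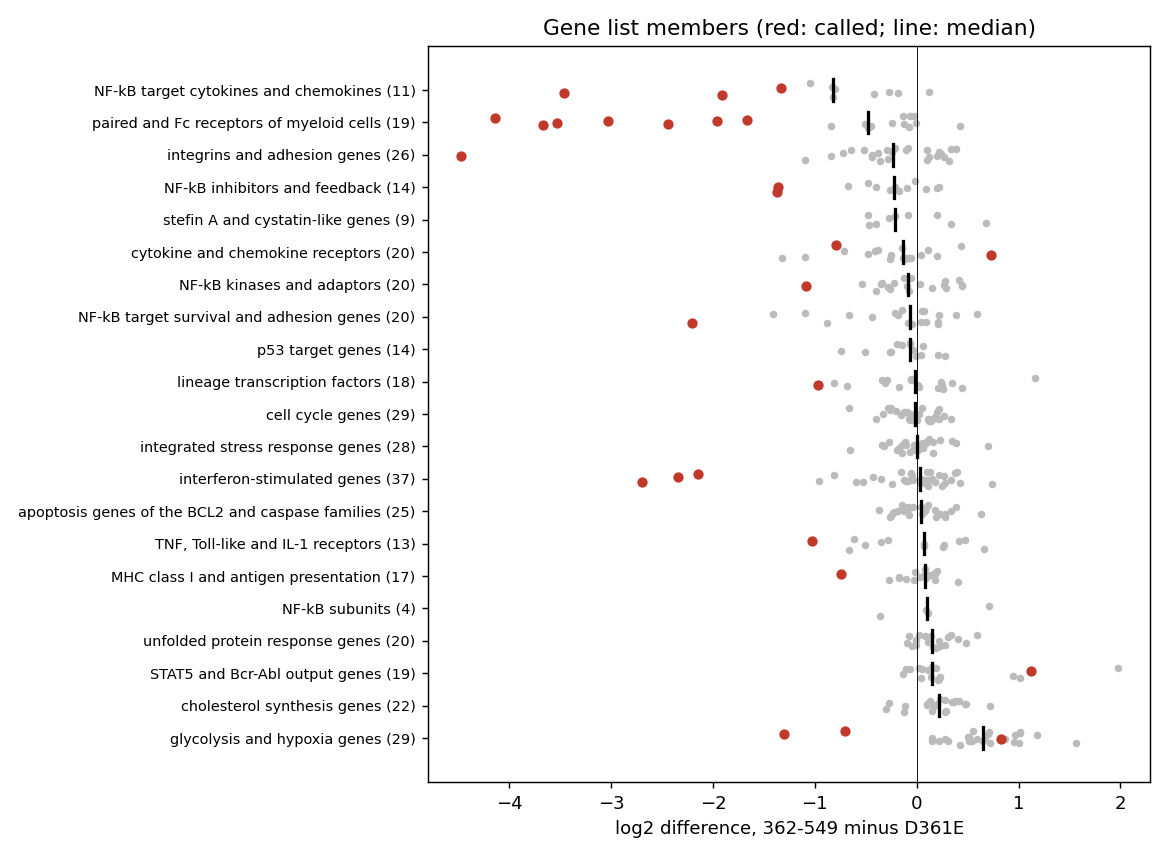
Each point is a tested member of a gene list at its log2 difference, 362-549 minus D361E; red points are called and the short line is the list's median. The calls in the myeloid receptor list all lie on the negative side, and most glycolysis and hypoxia points lie above 0 without being called.

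Both groups were also set beside WT, in comparisons that share the WT arrays and therefore are given only side by side. Nfkbia, Tnfaip3, Ltb and Lta were lower in 362-549 than in WT, with differences of -1.48, -1.92, -1.21 and -2.25, each called, and their D361E minus WT differences of -0.12, -0.55, 0.12 and -0.34 were not called. Lta was above background on 1 of the 3 362-549 arrays. Traf1 and Clec4e had 362-549 minus WT differences of -1.14 and -1.96 (adjusted p = 0.0267 and 0.000146), and D361E minus WT differences of -0.05 and 0.48, neither called. Gbp2, dim on every 362-549 array, was at least 1.85-fold lower there than in WT (adjusted p = 0.000477), and D361E minus WT was 0.22, not called. Hif1a, measured on all arrays of the 3 groups, had a 362-549 minus WT difference of -0.17, not called, and a D361E minus WT difference of 1.14 (adjusted p = 6.76e-05). Ccl3 was above background on 0 of 3 362-549, 4 of 4 D361E and 3 of 4 WT arrays, so a difference between 362-549 and WT was hardly measurable (not called), and D361E minus WT was 2.42 (adjusted p = 0.0001). Mirt2 was not well above background on any 362-549 or WT array and was at least 6.51-fold higher in D361E than in WT (adjusted p = 0.00111). Slc4a5 and Ifitm6 were above background on no 362-549 array and on 1 of 4 WT arrays, which leaves no comparison of 362-549 with WT for them. Acod1 was at least 2.76-fold lower in 362-549 than in WT (adjusted p = 3.81e-07), and its D361E minus WT difference was 1.88 (adjusted p = 8.92e-05). Gpr132, above background on 1 of 3 362-549 arrays, was also called in both, at -1.71 for 362-549 minus WT and 1.34 for D361E minus WT. Itih3 was at least 20.3-fold lower in 362-549 than in WT (adjusted p = 8.55e-09), and its D361E minus WT difference was -2.62 (adjusted p = 6.76e-05). Fndc4 and Olfr165, not well above background on any D361E or WT array, were at least 14.4-fold (adjusted p = 6.3e-06) and at least 4.44-fold (adjusted p = 1.41e-05) higher in 362-549 than in WT. Epb41l3 was above background on all 3 362-549, 2 of 4 D361E and 1 of 4 WT arrays, and was called higher in 362-549 than in WT (adjusted p = 4.77e-05). Trpc6 had a 362-549 minus WT difference of 0.29 (adjusted p = 0.907) and a D361E minus WT difference of -2.97 (adjusted p = 0.000108). Hbb-bt was above WT in both, by 5.47 in 362-549 and 2.38 in D361E.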

How the data were processed

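The deposited files hold spot intensity values; per the file headers the scans went through Agilent Feature Extraction, named with version 10.7.3.1 in the submitters' processing notes, which subtracted background and put surrogates in place of low intensity values. Probe coordinates are on mm9, per the file headers. The series' deposited values equal the processed signal.

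Groups came from the source name. Processed signals were turned to log2 minus each array's 75th percentile. Of 44397 spots, controls (leaving 43020) and outlier-marked spots were left out, and spots of 1 of the 39429 probes were averaged. The 19774 probes that cleared background on each array of some group were kept, and the brightest probe stood for a gene. The accession gave 27508 probes a RefSeq symbol (GRCm38.p6), and 11921 kept the file's name. limma 3.58.1 (R 4.3.3, with data.table, version 1.17.8) fitted all 17 arrays in 5 groups, two-sided, with Benjamini-Hochberg adjustment. On simulated data for this comparison (15259 genes), 88% of 100 genes changed by 2 (log2) and 51% of 100 changed by 1 were called, with 10 false calls.

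Named genes were Rela; the 15 largest rises and 15 largest falls among called, non-overlapping genes with an ordinary symbol; up to 4 called genes per list (21 pathway and 12 marker lists); and all tested NF-kB subunits and inhibitors. A further 12 were chosen after their values were seen. The members and lists were chosen with earlier results of these data known. Some named genes are not reported here. Exon and UTR positions of probes and the RelA protein sequence were not used here. Alternatives were other scaling, background correction and filters, the mean of probes, only the 7 arrays, slide or title round as a block, and leaving out each array.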

Additional observations from a re-analysis of the deposited data

Results flagged for a closer look

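Olr1, a scavenger receptor gene, had 1 D361E array apart from the others. D361E replicate 1 was at -2.79, and its gap to the nearest array was 0.84 of the range of the 4 D361E arrays, above Dixon's critical value for 4 samples. All 4 stayed above the 362-549 arrays. Levels of 80 named genes were examined, and chance marks about 1 in 20 such groups.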

How the results depend on the processing

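All 196 called genes that an alternative tested kept their direction in each alternative. Since their groups did not overlap, leaving out an array could not turn a sign on the same probe. Of the 64 named called genes 39 were called without each array in turn, 25 with slide as a fixed block and 10 in every setting run. The count of called genes, 196 (63 higher, 133 lower), was 40 (6 and 34) with normexp, 115 (35 and 80) for genes above background on all arrays, 97 (24 and 73) with only the 7 arrays and 55 (18 and 37) with slide as a fixed block, which leaves 7 residual degrees of freedom. It was 145 with no scaling, with 28 higher, and 139 with no filter, with 88 lower. Leaving out 1 array gave 120 to 182 calls (40 to 50 higher, 80 to 132 lower). Without 362-549 replicate 2 it was 123 and without D361E replicate 2 it was 120, both over 1.5 times below 196. Whether the rounds of the title numbers pair the arrays was not settled. Deviation correlations in the same round were 0.387, -0.18 and 0.635 for rounds 1, 2 and 3. In round 1 (narrowly) and round 3 the same-round value was above those of the same 362-549 array with D361E arrays of other rounds. In round 2 it was not, and 1 different-round value there, 0.421, was also above the same-round value of round 1. With title rounds as a replicate block 543 genes were called, 272 higher and 271 lower. The lower share was thus 49.9%, against 67.9% without the block and 63.3% with no filter. The cause of these changes was not tested. Signs turned for 4 uncalled genes. Rela was -0.00141 with quantile scaling, -0.106 with no scaling and -0.00617 with normexp. Nfkb2 was -0.0875 with no scaling and -0.0678 to 0.282 without 1 array. Tnip2 was -0.107 with no scaling, -0.0409 with the replicate block and -0.0874 to 0.263 without 1 array. Nfkbiz was 0.109 with normexp, 0.0174 with slide as a block, 0.301 within the shared slide and -0.175 to 0.133 without 1 array. No scaling moved the median of all genes to -0.16, from 0.04. For genes near background, signal over background limits the size of a difference.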
